A study of Homo sapiens with 6 samples.

Results

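The 34 genes described here are those of sterol and fatty acid synthesis with their regulators and the genes of sterol transport and storage. They were chosen by name and not by a rule on measured values, but with earlier results of these data known. A gene counted as measured where the array had a probe set that the platform annotation assigns to it alone, older aliases included, and 31 of the 34 had one, out of 19775 such genes on the array. All 31 were bright enough to test, which means a mean log2 intensity of at least 5.96 over the arrays, among 12630 genes that were. Of the other 3, CYP51A1 shared its probe sets with LRRD1, FADS1 shared its own with MIR1908, and FDFT1 was listed with none, so these 3 were not analysed here. By role, 16 of 18 genes of sterol synthesis were measured, 6 of 7 of fatty acid synthesis, 4 of 4 regulators and 5 of 5 genes of transport and storage.

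RNA was measured on 6 Affymetrix arrays in A549, a human lung adenocarcinoma cell line. Lentiviral vectors had been used to make 3 stable lines, each with a short hairpin RNA that doxycycline (DOX) switches on: shCNOT3-1 and shCNOT3-2, with hairpins against different sequences of CNOT3, and shNTC, with a non-targeting hairpin. CNOT3 belongs to the CCR4-NOT complex, the main deadenylase of cytoplasmic mRNA. The groups were shCNOT3 with DOX (shCNOT3-1 and shCNOT3-2, 1 ug/ml for 72 hours), shNTC with the same DOX, shCNOT3 without DOX and shNTC without DOX. There was 1 array for each line and state, so a DOX change within a line has no replicate check, and the sources used here do not say whether a line was 1 clone or a pool. DOX was given to all 3 lines, and the shNTC pair shows how a member's level differed with DOX and a hairpin that has no target.

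Cholesterol is built from acetyl-CoA through mevalonate, isoprenoid diphosphates, squalene and lanosterol, and fatty acids are built from the same acetyl-CoA through malonyl-CoA. Transcription of most of these enzymes is driven by the SREBP proteins, which SCAP escorts from the endoplasmic reticulum to the Golgi for cleavage when sterols are scarce and which INSIG proteins hold back when sterols are plentiful. When sterols are in excess, the nuclear receptor LXR raises the export pumps ABCA1 and ABCG1 and the ubiquitin ligase MYLIP, and SOAT1 stores cholesterol as esters.

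SREBPs bind promoters beside the factors NF-Y, which reads CCAAT, and Sp1, which reads GGGCGG, and a sterol regulatory element can be written TCACNCCAC. The 250 bases before the RefSeq start (GRCh38.p14) are shown for 4 enzymes of the later results. MVD is the member that was at least 2-fold higher with DOX in all 3 lines (chr16:88663092-88663341, minus strand). The others were chosen after their values were seen: MSMO1 (chr4:165327419-165327668, plus strand) and SC5D (chr11:121292521-121292770, plus strand, the first of its RefSeq starts) had like DOX changes in every line, and HSD17B7 (chr1:162790452-162790701, plus strand) was higher with DOX in both shCNOT3 lines and not in shNTC. Capitals mark CCAAT or GGGCGG on either strand, and none of these matches overlap each other.
MVD: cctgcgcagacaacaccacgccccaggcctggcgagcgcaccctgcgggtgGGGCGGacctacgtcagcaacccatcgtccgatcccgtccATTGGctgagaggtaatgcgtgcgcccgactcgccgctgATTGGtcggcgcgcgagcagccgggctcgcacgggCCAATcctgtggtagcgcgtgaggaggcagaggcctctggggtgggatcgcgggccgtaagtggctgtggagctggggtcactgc
MSMO1: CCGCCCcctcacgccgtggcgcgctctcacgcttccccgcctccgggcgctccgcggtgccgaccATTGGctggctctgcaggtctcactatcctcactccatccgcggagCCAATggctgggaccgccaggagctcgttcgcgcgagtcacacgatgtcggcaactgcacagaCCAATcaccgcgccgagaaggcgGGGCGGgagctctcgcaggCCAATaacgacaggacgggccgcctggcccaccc
SC5D: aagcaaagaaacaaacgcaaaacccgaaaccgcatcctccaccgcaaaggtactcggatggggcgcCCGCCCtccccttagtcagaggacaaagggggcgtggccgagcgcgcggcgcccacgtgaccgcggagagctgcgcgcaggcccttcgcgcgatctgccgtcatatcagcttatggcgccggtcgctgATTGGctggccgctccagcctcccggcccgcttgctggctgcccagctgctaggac
HSD17B7: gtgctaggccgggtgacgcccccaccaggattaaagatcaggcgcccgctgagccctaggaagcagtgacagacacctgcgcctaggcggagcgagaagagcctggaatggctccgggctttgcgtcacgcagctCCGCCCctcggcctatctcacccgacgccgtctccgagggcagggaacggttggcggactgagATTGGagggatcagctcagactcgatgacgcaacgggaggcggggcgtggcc
MVD had 3 CCAAT matches and MSMO1 had 4, while SC5D and HSD17B7 had 1 each, and TCACNCCAC matched in none of the 4. RefSeq windows were found for 29 of the 34 members, 38 windows in all, some of them overlapping windows of 1 gene. CCAAT was in 25 of those 38 windows (65.8%), against 32.6% of the 15023 windows of tested genes and 32.0% of all 35116 windows. GGGCGG was in 34 of the 38 (89.5%), against 62.0% of windows of tested genes and 42.6% of all. TCACNCCAC was in 1 window (2.63%), that of SREBF2, against 0.865% and 0.883%. These matches describe letters in a window and not sites in use.

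By its brightest probe set, CNOT3 had less signal with DOX in shCNOT3-1 and shCNOT3-2. Its intensity with DOX was 81.9 in shCNOT3-1 and 46.9 in shCNOT3-2, which is 36.4% and 20.9% of the level without DOX, and 166 in shNTC, or 93.4%. Over both hairpins the log2 change averaged -1.86, with an adjusted p of 0.0677 in limma, and a second bright CNOT3 probe set was lower in shNTC as well (-2.13 and -2.22 in the shCNOT3 lines, -1.43 in shNTC). All 5 epithelial markers, CDH1, KRT8, KRT18, KRT19 and EPCAM, were above the brightness filter, as were ALDH1A1 and NQO1, genes known to be high in A549. Of 9 markers of fibroblasts, endothelium and leukocytes 3 were above it (COL1A1, DCN and PECAM1), and of 5 alveolar markers 4 were, with NKX2-1 at a median of 88.9 and SFTPC at 121. The ratio of the 3' to the 5' probe sets of ACTB, a measure of RNA integrity, was 1.42 with and 1.33 without DOX in shCNOT3-1, 1.45 and 1.36 in shCNOT3-2, and 1.47 and 1.58 in shNTC. It was thus higher with DOX in both shCNOT3 lines and lower with DOX in shNTC. The same ratio for GAPDH was 1.03 with and 0.98 without DOX in shCNOT3-1, 1.05 and 1.09 in shCNOT3-2, and 0.966 and 0.980 in shNTC. GAPDH thus did not repeat the ACTB pattern in shCNOT3-2. The part of RNA integrity in the members' values was not tested. In RNA from a whole culture, fewer cells with a transcript and less of it per cell cannot be told apart.

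**Figure D1:**
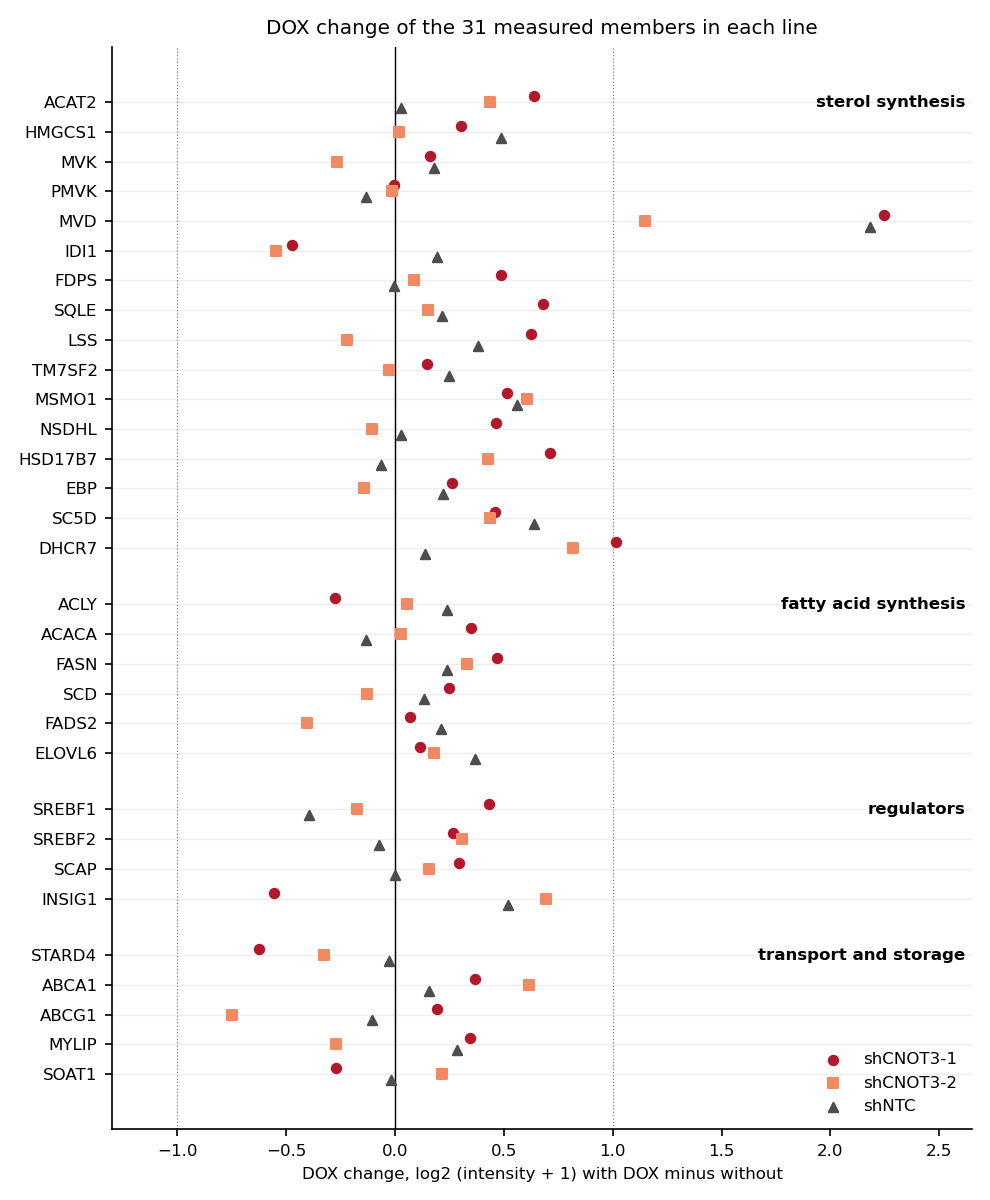
DOX change of each of the 31 measured members (log2 of intensity + 1, with DOX minus without), by role, with 1 point per line (circles shCNOT3-1, squares shCNOT3-2, triangles shNTC) and dotted lines at 2-fold. MVD lies beyond 2-fold in all 3 lines, DHCR7 and HSD17B7 lie further right in the shCNOT3 lines than in shNTC, and IDI1 lies left of 0 in both shCNOT3 lines only.

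The sterol synthesis genes were mostly higher with DOX in shCNOT3-1 and in shNTC, and evenly spread in shCNOT3-2. Their median log2 change was 0.47 in shCNOT3-1, 0.05 in shCNOT3-2 and 0.21 in shNTC, against 0.05, 0.02 and -0.01 for all tested genes. With DOX, 14 of the 16 were higher in shCNOT3-1, 9 in shCNOT3-2 and 13 in shNTC. Across all roles 25 of 31 members were higher with DOX in shCNOT3-1 (80.6%), 18 in shCNOT3-2 (58.1%) and 22 in shNTC (71.0%), where 54.5%, 51.8% and 48.8% of all tested genes were. In all 3 lines 11 of the 31 were higher (35.5%), against 15.7% of tested genes. These counts take differences of any size and have no test.

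No member passed the threshold of 0.05 on the adjusted p in limma in any of 3 models. The first took knockdown as the DOX change averaged over shCNOT3-1 and shCNOT3-2, with shNTC in the residual, and called 0 members, while 0.222% of tested genes were called, and the lowest adjusted p of a member was 0.0800, for DHCR7. The second took the change of the shCNOT3 lines beyond that of shNTC and called 0 members and 0% of tested genes, with a lowest adjusted p of 0.550 for IDI1. The third took DOX as 1 effect in all 3 lines and called 0 members and 0% of tested genes, with 0.548 for MVD and MSMO1. At an unadjusted p under 0.05, the knockdown model took 6 members as higher (19.4% of the 31, against 7.45% of tested genes), namely MVD, SQLE, MSMO1, HSD17B7, DHCR7 and ACAT2. In the other direction it took 2 members, IDI1 and STARD4 (6.45%, against 7.08% of tested genes). The model of DOX in all lines took 5 as higher (16.1%, against 3.92%), namely MVD, SQLE, MSMO1, SC5D and DHCR7, and the model of change beyond shNTC took IDI1 alone (3.23%, against 8.4% in either direction). In simulated data of this size the knockdown model recovered 52.8% of 2-fold changes and the model beyond shNTC 18.0%, and most members differed by less than 2-fold, a size that was not simulated.

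The first enzymes of the mevalonate route had no common direction. ACAT2, the thiolase that joins acetyl-CoA units, had 4534 in shCNOT3-1 and 4196 in shCNOT3-2 with DOX, against 2913 and 3101 without it, while shNTC had 4133 with and 4061 without DOX. The shCNOT3 arrays with DOX were thus near both shNTC arrays, and it was the shCNOT3 arrays without DOX that stood lower. Its log2 changes were 0.64, 0.44 and 0.03, and the knockdown value was 0.54 ± 0.17 (SE, adjusted p = 0.200). HMGCS1, which makes HMG-CoA, had 2909, 2373 and 2943 with DOX in shCNOT3-1, shCNOT3-2 and shNTC, against 2360, 2342 and 2097 without. Its largest change, 0.49, was in shNTC, and a second probe set put it at 0.40, 0.60 and 0.91, largest in shNTC too. The phosphomevalonate kinase PMVK was at -0.0046, -0.016 and -0.14. For the mevalonate kinase MVK the brightest probe set gave 0.16, -0.27 and 0.18, a second gave 0.71, 0.45 and -0.26 and another 0.30, -0.22 and 0.36, so its direction depended on the probe set in shCNOT3-2 and in shNTC.

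MVD, which decarboxylates mevalonate diphosphate to isopentenyl diphosphate, had the largest DOX change of the members in all 3 lines. Its intensity with DOX was 204 in shCNOT3-1, 151 in shCNOT3-2 and 234 in shNTC, against 42.2, 67.6 and 50.9 without DOX. All 3 arrays with DOX were above all 3 without, and the lines did not separate. The folds were 4.75, 2.22 and 4.53, so the control line had a fold between those of the hairpin lines, and the model of DOX in all lines gave a log2 value of 1.86 ± 0.36 (SE, adjusted p = 0.548). MVD has a single probe set here, and 2 of its 3 arrays without DOX were below 61.4, the intensity of the brightness filter. At least 2-fold higher with DOX were 2 members in shCNOT3-1 (MVD and DHCR7), against 3.42% of tested genes, 1 in shCNOT3-2 (MVD), against 3.59%, and 1 in shNTC (MVD), against 1.82%, and 0 members were 2-fold lower in any line.

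IDI1, which isomerises isopentenyl diphosphate, had lower values with DOX in both shCNOT3 lines, as PMVK did by far less. It had 3767 in shCNOT3-1 and 3906 in shCNOT3-2 with DOX, against 5232 and 5711 without, while shNTC had 7318 with and 6395 without DOX. The shCNOT3 arrays with DOX were the lowest of the 6, and shNTC with DOX was the highest. The knockdown value was -0.51 ± 0.16 (SE, adjusted p = 0.202) and the change beyond shNTC -0.71 (adjusted p = 0.550). Its other probe sets above the filter gave -0.10 to -0.34 in shCNOT3-1 and -0.28 to -1.48 in shCNOT3-2, but -0.35 to 0.30 in shNTC. All its probe sets but the dimmest carry the array maker's mark for probes that can match other sequences. The unmarked one was lower with DOX in every line (-0.34, -1.48 and -0.35). FDPS, which builds farnesyl diphosphate from the products of IDI1, had 10604 in shCNOT3-1, 7452 in shCNOT3-2 and 6528 in shNTC with DOX, against 7570, 7008 and 6548 without. Only the shCNOT3-1 array with DOX stood apart (log2 changes 0.49, 0.09 and -0.0044).

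SQLE, the squalene epoxidase that acts before ring closure, had 12736 in shCNOT3-1, 7965 in shCNOT3-2 and 9196 in shNTC with DOX, against 7961, 7183 and 7915 without. The log2 changes of 0.68, 0.15 and 0.22 were joined by 3 other probe sets, at 0.59 to 0.88 in shCNOT3-1, -0.17 to 0.57 in shCNOT3-2 and 0.11 to 0.21 in shNTC. All 4 probe sets of SQLE thus put shCNOT3-1 above shNTC, and shCNOT3-2 varied with the probe set. LSS, which closes the rings to lanosterol, differed between the hairpins, at 0.63 in shCNOT3-1, -0.22 in shCNOT3-2 and 0.38 in shNTC, and TM7SF2, a sterol reductase, was at 0.14, -0.03 and 0.25.

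MSMO1, the oxidase that starts removal of the methyl groups of lanosterol-derived sterols, had nearly the same change in each line. With DOX its intensity was 9853 in shCNOT3-1, 9912 in shCNOT3-2 and 9411 in shNTC, against 6903, 6516 and 6381 without. The arrays with DOX and those without formed groups that did not overlap. That also held for MVD and DHCR7, and by narrow margins for ACAT2, HMGCS1 and SQLE. For SQLE the lowest array with DOX was 7965 (shCNOT3-2) and the highest without was 7961 (shCNOT3-1). For HMGCS1 these were 2373 (shCNOT3-2) and 2360 (shCNOT3-1), and for ACAT2 4133 and 4061, both in shNTC. The share of all tested genes with such groups was not counted, so the pattern is not set apart from the rest of the array. The log2 changes of MSMO1 were 0.51, 0.61 and 0.56. Its DOX effect over all lines was 0.56 ± 0.12 (SE, adjusted p = 0.548), and its change beyond shNTC was -0.0013 (adjusted p = 0.998). SC5D, which adds a double bond late in the route, had 3502, 3116 and 3647 with DOX in shCNOT3-1, shCNOT3-2 and shNTC, against 2551, 2305 and 2346 without. Its groups did not overlap either, and shNTC had the largest of its changes (0.46, 0.43 and 0.64, adjusted p = 0.569 for DOX in all lines).

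HSD17B7 and NSDHL act after MSMO1 in the same demethylation, and EBP then moves a double bond. HSD17B7 had 2822 in shCNOT3-1 and 2475 in shCNOT3-2 with DOX, against 1724 and 1843 without, while shNTC had 1968 with and 2062 without DOX. Both shCNOT3 arrays with DOX were above the other 4 arrays. The knockdown value was 0.57 ± 0.18 (SE, adjusted p = 0.217) and the change beyond shNTC 0.63 (adjusted p = 0.673), from 1 probe set that also carries the mark for probes that can match other sequences. NSDHL was at 0.46, -0.11 and 0.03 and EBP at 0.26, -0.14 and 0.22 on the log2 scale in shCNOT3-1, shCNOT3-2 and shNTC by their brightest probe sets, with opposite signs in the hairpin lines. A second bright probe set had both hairpin lines higher, at 0.79, 0.25 and -0.06 for NSDHL and at 0.13, 0.05 and 0.28 for EBP. Of 2 dimmer EBP probe sets, 1 gave -0.46, -0.51 and 0.82 and the other 0.30, 0.35 and 0.17, so the sign in shCNOT3-2 depended on the probe set for both genes.

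DHCR7, the reductase that makes cholesterol from its direct precursor, was the member nearest to the threshold for knockdown. It had 3177 in shCNOT3-1 and 2113 in shCNOT3-2 with DOX, against 1574 and 1200 without, while shNTC had 2029 with and 1842 without DOX. The shCNOT3 arrays with DOX were the highest, but shCNOT3-2 with DOX was close to shNTC with DOX, and the shCNOT3 arrays without DOX were the lowest of all. The folds were 2.02, 1.76 and 1.10, and the knockdown value was 0.91 ± 0.19 (SE, adjusted p = 0.0800). DHCR7 was the 1 member of 31 at least 1.5-fold different in both hairpin lines with a shNTC change under 0.5 of the smaller one, a pattern that 4.8% of tested genes had. A second probe set did not repeat it in shCNOT3-2: it had 2569, 1627 and 2198 with DOX in shCNOT3-1, shCNOT3-2 and shNTC, against 1575, 1808 and 1589 without (0.71, -0.15 and 0.47 on the log2 scale).

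**Figure D2:**
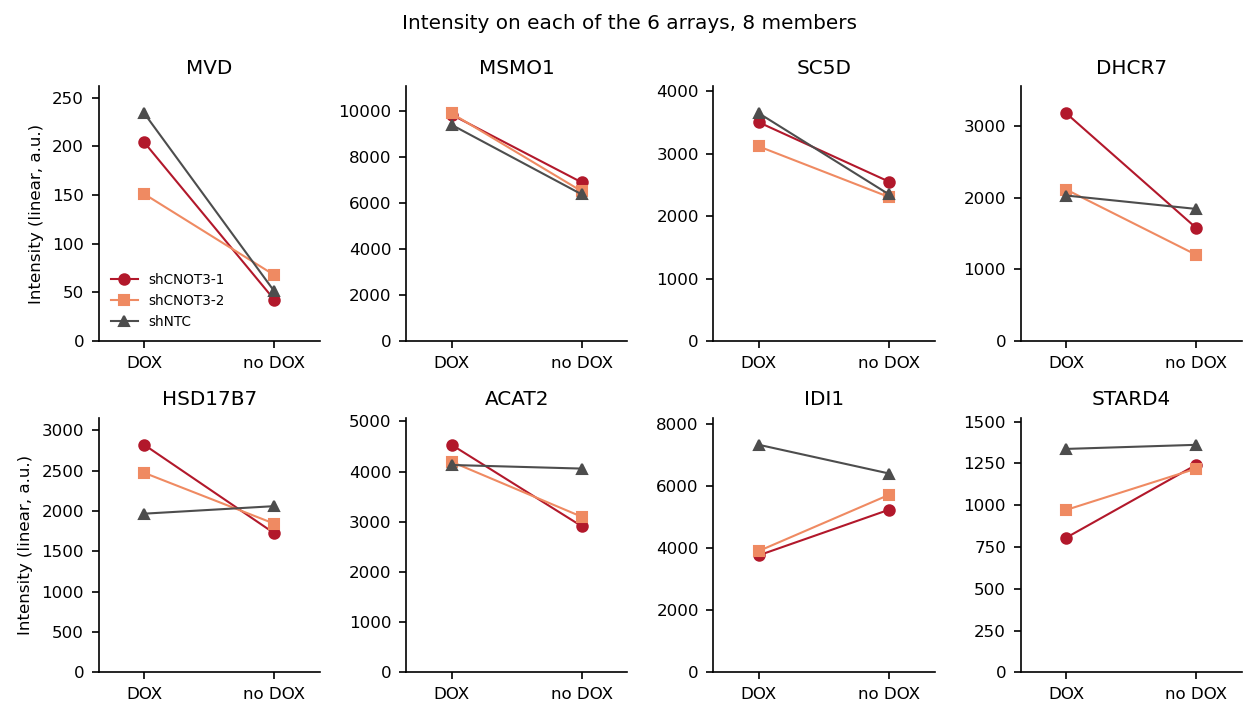
Intensity (linear, arbitrary units, axes from 0) of 8 members on each of the 6 arrays, with DOX on the left and without on the right of each panel, and a line joining the pair of each stable line. MVD, MSMO1 and SC5D are higher with DOX in all 3 lines, and MVD is less steep in shCNOT3-2 than in the other lines. For DHCR7, HSD17B7, ACAT2, IDI1 and STARD4 the shNTC pair is flatter or slopes the other way.

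The fatty acid genes had DOX changes under 0.5 on the log2 scale by their brightest probe sets. Their median log2 change was 0.18 in shCNOT3-1, 0.04 in shCNOT3-2 and 0.23 in shNTC, and 3 of the 6 were higher in both hairpin lines (ACACA, FASN and ELOVL6), as were 33.2% of tested genes. FASN, the fatty acid synthase, had 993, 875 and 666 with DOX in shCNOT3-1, shCNOT3-2 and shNTC, against 717, 696 and 564 without, and its log2 changes were 0.47, 0.33 and 0.24 (knockdown 0.40 ± 0.21, SE, adjusted p = 0.416). Each line was thus higher with DOX for FASN, by less in shNTC on this probe set and by more on a dimmer one (0.89, 0.22 and 1.89). ACLY, which supplies cytosolic acetyl-CoA, was at -0.28, 0.06 and 0.24, and ACACA, the carboxylase that makes malonyl-CoA, at 0.35, 0.03 and -0.13. A second ACACA probe set was lower with DOX in every line (-0.31, -0.75 and -0.15). ELOVL6, an elongase, was at 0.11, 0.18 and 0.37. FADS2, a desaturase of polyunsaturated fatty acids, was at 0.07, -0.40 and 0.21 by its brightest probe set and at -2.13, -0.29 and 0.58 by a dimmer one. That dimmer FADS2 probe set had 51.3, 189 and 456 with DOX in shCNOT3-1, shCNOT3-2 and shNTC, against 228, 232 and 305 without, and its shCNOT3-1 array with DOX, the lowest of the 6, was below the filter intensity. With the mean of both, FADS2 had a knockdown value of -0.69 ± 0.24 (SE, adjusted p = 0.293) and a change beyond shNTC of -1.08 (adjusted p = 0.540, the lowest of any member in that setting). For SCD, the stearoyl-CoA desaturase, the brightest probe set gave 0.25, -0.13 and 0.13, while 3 dimmer ones gave 0.48 to 0.84 in shCNOT3-1, -0.16 to 0.03 in shCNOT3-2 and 0.62 to 0.68 in shNTC. The 4 probe sets of SCD shared an order in which shCNOT3-2 was the line with the lowest change.

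Among the regulators, SREBF2, the gene of the SREBP that mainly drives sterol synthesis, had 428, 440 and 324 with DOX in shCNOT3-1, shCNOT3-2 and shNTC, against 356, 355 and 341 without. Both hairpin lines were higher with DOX by a log2 of 0.27 and 0.31 and shNTC lower (-0.07), but a second probe set was lower in all lines (-0.43, -0.42 and -0.30). Another, at -0.22, 0.72 and 0.28, had opposite signs in the hairpin lines. SREBF1, whose products mainly drive fatty acid synthesis, was at 0.43, -0.18 and -0.40, and a dimmer probe set, which had 29.9 and 44.7 in shCNOT3-2 and shNTC without DOX, turned the sign in every line (-0.15, 2.14 and 1.64). SCAP, the escort of SREBPs, was at 0.29, 0.15 and 0.0017. INSIG1, the retention protein and itself an SREBP target, had 2007, 4535 and 3587 with DOX in shCNOT3-1, shCNOT3-2 and shNTC, against 2948, 2809 and 2504 without. INSIG1 was lower with DOX in shCNOT3-1 and higher in the other lines (-0.55, 0.69 and 0.52), with the widest spread between hairpins of any member (mean 0.07 ± 0.88, SD, n = 2). Its 2 other probe sets gave -0.04, 0.93 and 0.89, and 0.97, 0.43 and 0.26, so for shCNOT3-1 the direction depended on the probe set.

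Of the genes of transport and storage, STARD4, a carrier of cholesterol between membranes and an SREBP target, had 806 and 972 in shCNOT3-1 and shCNOT3-2 with DOX, against 1242 and 1219 without, while shNTC had 1337 with and 1361 without DOX. The shCNOT3 arrays with DOX were the lowest, and the shNTC pair lay close together (knockdown -0.48 ± 0.20, SE, adjusted p = 0.312, from a single probe set). ABCA1, the pump that loads cholesterol onto lipoprotein particles, had 592, 452 and 351 with DOX in shCNOT3-1, shCNOT3-2 and shNTC, against 458, 295 and 315 without. It was higher with DOX in each line (0.37, 0.62 and 0.16), as on a second probe set, where the change was largest in shNTC (0.82, 0.61 and 0.86). ABCG1 (0.19, -0.75 and -0.11), MYLIP (0.35, -0.27 and 0.28) and SOAT1 (-0.27, 0.21 and -0.02) had opposite signs in the hairpin lines by their brightest probe sets. MYLIP kept those signs on all 4 of its probe sets above the filter. The other bright probe sets of ABCG1 (-0.36, -0.29 and 0.50) and SOAT1 (-0.08, -0.14 and 0.66, and -0.20, -0.11 and -0.51) were lower in both hairpin lines.

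The 31 members had 77 probe sets, 67 of them above the filter, and 20 members had several bright ones. Bright probe sets of 1 gene had opposite signs for 8 genes in shCNOT3-1, 11 in shCNOT3-2 and 7 in shNTC, and lay over 0.5 apart on the log2 scale for 9, 9 and 13 genes. With the mean of a member's bright probe sets in place of the brightest, a setting chosen after seeing the data, 13 members were higher with DOX in all 3 lines (41.9%, against 15.2% of tested genes). The model of DOX in all lines then took 10 members as higher at an unadjusted p under 0.05 (32.3%, against 3.86%), with 0 called and a lowest adjusted p of 0.613. They were ACAT2, HMGCS1, MVD, MSMO1, SC5D, DHCR7, FASN, SREBF1, INSIG1 and ABCA1. FASN and SREBF1 then include a dim probe set, at 46.2 in shNTC without DOX for FASN. That of SREBF1 had 29.9 in shCNOT3-2 and 44.7 in shNTC without DOX. By its brightest probe set the DOX effect of SREBF1 over all lines was -0.05. The median member changes were then 0.29 in shCNOT3-1, 0.09 in shCNOT3-2 and 0.30 in shNTC.

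**Figure D3:**
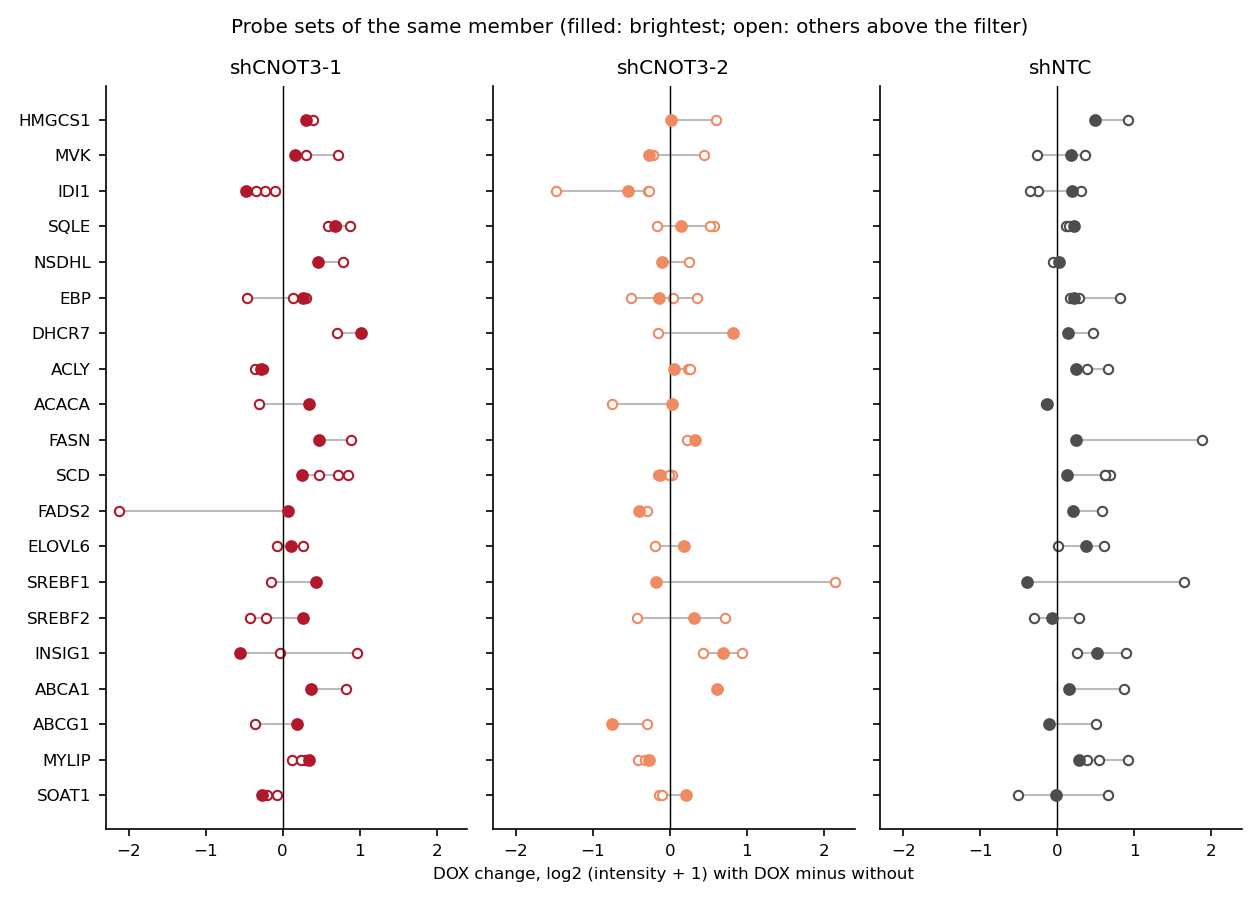
DOX change (log2 of intensity + 1, with DOX minus without) of every bright probe set of the 20 members that have several, in 1 panel per line, with the brightest filled. INSIG1 spans 0 in shCNOT3-1 and DHCR7 in shCNOT3-2, while all 4 probe sets of SQLE lie above 0 in shCNOT3-1 and in shNTC.

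Genes beside these routes were taken from 5 further lists, and 1 of their genes passed the test. NPC1, which exports cholesterol from lysosomes, had 6822 and 6104 in shCNOT3-1 and shCNOT3-2 with DOX, against 3011 and 2430 without, while shNTC had 2365 with and 2580 without DOX. The knockdown value was 1.25 ± 0.17 (SE, adjusted p = 0.0230), so NPC1 rose, but its other bright probe set gave -0.06, -0.07 and -0.10, and the change beyond shNTC was 1.38 (adjusted p = 0.294). The call was lost with no intensity trend (adjusted p = 0.260), no filter (0.0665), means over all or bright probe sets (0.563 and 0.252) and either hairpin line left out (0.0674 without shCNOT3-1 and 0.0703 without shCNOT3-2). For the list of sterol transport and LXR the medians over 16 genes were 0.02, 0.11 and 0.03 in shCNOT3-1, shCNOT3-2 and shNTC, with 6 higher and 3 lower in both hairpin lines. Of all tested genes 33.2% were higher and 26.9% lower in both, which is the background for this count in each list. LIPA, the lysosomal lipase that frees cholesterol from its esters, was at 0.41, 0.60 and 0.06. RXRA, the partner receptor of LXR, was lower in all lines (-0.71, -0.33 and -0.63), while a second bright probe set gave 0.53, -0.31 and -0.46. NCEH1, which hydrolyses cholesteryl esters, was at -0.86, -0.13 and 0.26, so its hairpin mean of -0.50 rested on shCNOT3-1.

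The genes of SREBP processing and sterol-regulated degradation were, of these 5 lists, the one with most genes lower in both hairpin lines. Its medians over 13 genes were -0.07 in shCNOT3-1, -0.23 in shCNOT3-2 and 0.12 in shNTC, with 7 lower and 1 higher in both hairpin lines and 0 called. ERLIN2, an endoplasmic reticulum protein of that degradation, had 1110 and 1175 in shCNOT3-1 and shCNOT3-2 with DOX, against 1551 and 1628 without, and 1496 with and 1485 without DOX in shNTC (knockdown -0.48 ± 0.19, SE, adjusted p = 0.292). Its other bright probe sets were lower in both hairpin lines too, and 1 of them was lower in shNTC (-0.71). SEC24D, of the coat that carries SREBP with SCAP, was at -0.44, the ubiquitin ligase MARCHF6 at -0.39 and PAQR3, a Golgi anchor of SCAP, at -0.31, of which PAQR3 and MARCHF6 were lower in shNTC too (-0.39 and -0.21). A second MARCHF6 probe set, nearly as bright, gave -0.06, 0.45 and 0.47.

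For triglyceride and phospholipid synthesis the medians over 16 genes were 0.10, 0.18 and 0.07, with 7 higher and 2 lower in both hairpin lines. PLIN2, the coat protein of lipid droplets, had 10828 and 6978 in shCNOT3-1 and shCNOT3-2 with DOX, against 4473 and 4319 without, and 2568 with and 4223 without DOX in shNTC. The shCNOT3 arrays with DOX were the highest and the shNTC array with DOX the lowest (knockdown 0.98 ± 0.24, SE, adjusted p = 0.126), but a dimmer probe set gave -0.65, 2.05 and -0.09. The choline kinase CHKA was at 0.90, 0.13 and 0.20, with 0.64, 0.61 and 0.0026 on a second probe set. The acyltransferases GPAT3 (-1.20, 0.20 and 0.40) and GPAM (-0.08, -0.72 and 0.02) each rested on 1 hairpin line. For fatty acid supply, activation and elongation the medians over 16 genes were 0.19, -0.07 and 0.14, with 5 higher and 5 lower in both hairpin lines. ACSL4, which activates polyunsaturated fatty acids, had 298 and 469 in shCNOT3-1 and shCNOT3-2 with DOX, against 653 and 771 without, and 544 with and 507 without DOX in shNTC (knockdown -0.92 ± 0.22, SE, adjusted p = 0.114). These ACSL4 values are from its only probe set above the filter. Those below the filter gave 1.93, 1.10 and -1.70, and 1.64, -1.79 and 2.92. On probe sets above the filter, FADS3 (0.88), ACACB (0.58) and OXSM (0.55) had higher values in both hairpin lines and lower ones in shNTC. The exception was 1 dimmer ACACB probe set (0.16, -0.46 and 0.41). ACACB probe sets below the filter varied in shCNOT3-2 (0.63, -0.73 and -1.19). For the isoprenoid branch, which uses farnesyl diphosphate for prenyl groups and dolichol, the medians over 11 genes were -0.01, -0.04 and -0.07, with 2 higher and 3 lower in both hairpin lines. Its named genes were FNTA, a prenyltransferase subunit (0.57, adjusted p = 0.165), RABGGTB (-0.28), ICMT (-0.27) and NUS1 (-0.47). FNTA was higher with DOX in shNTC too (0.27), while RABGGTB and ICMT had the opposite sign there (0.32 and 0.26). NUS1 was at -0.89, -0.04 and 0.35 by its brightest probe set and at -0.89, -0.79 and 0.20 by a second. None of the knockdown values in these 4 lists passed the test.

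**Figure D4:**
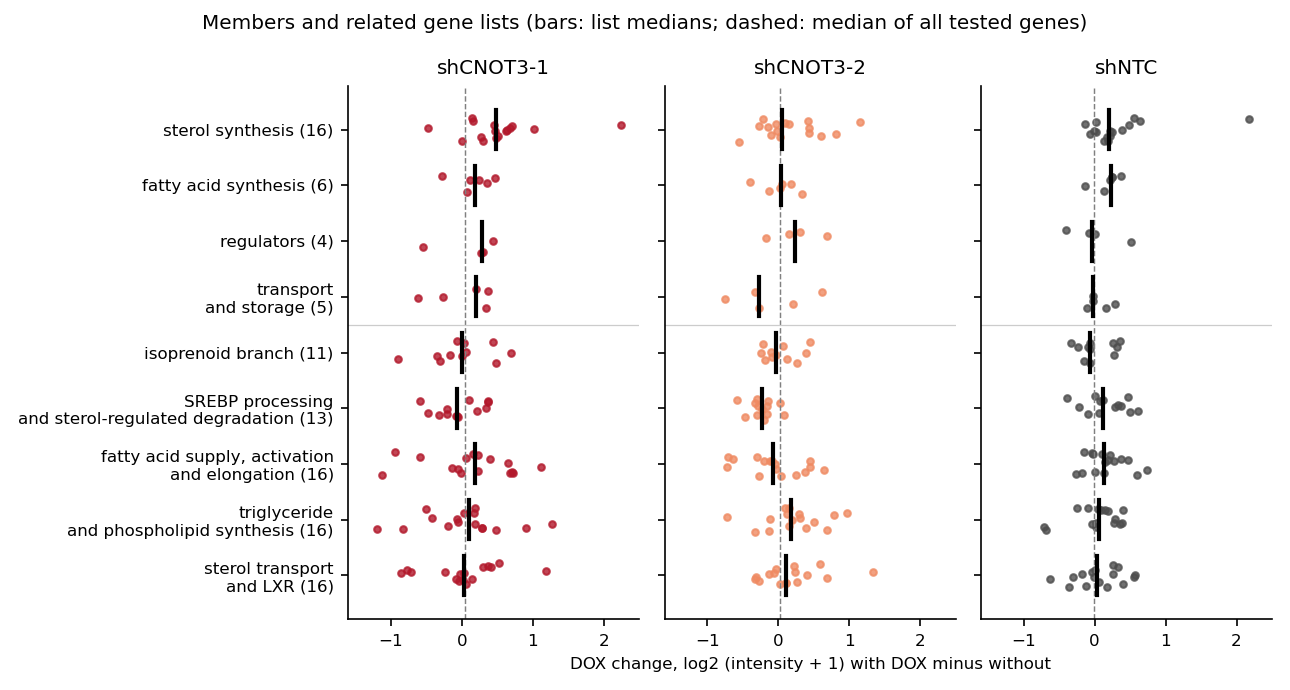
DOX change (log2 of intensity + 1, with DOX minus without) of each gene of the member roles and of the 5 further lists, in 1 panel per line, with list medians as bars and the median of all tested genes dashed. The sterol synthesis median stands at 0.47 in shCNOT3-1, 0.05 in shCNOT3-2 and 0.21 in shNTC. In shCNOT3-2 the median of the SREBP processing list and 11 of its 13 genes lie left of 0.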

How the data were processed

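Expression was measured in 3 stable A549 lines, each with and without DOX, on 6 arrays. Biotinylated cRNA came from 500 ng of RNeasy-purified total RNA, per the labels' protocols. The files hold intensity per probe set, linear, as deposited by the authors, from MAS5 per the submitters' processing notes, with settings not given in the sources used here. On every array the deposited intensity had a mean of 500.1 once 2% was trimmed from each end, the median was 64.9 to 72.8, and 202 to 376 of the 54675 probe sets lay at the lowest value, 1. There is no read depth, and the number of arrays limits precision.

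Control probe sets (62) were left out, 41091 probe sets had 1 gene in the platform annotation, and symbols were updated through Entrez identifiers to RefSeq. Each gene took the values of its brightest 1-gene probe set, on the scale log2(intensity + 1), which understates changes of the dimmest genes. Genes with a mean under the median of all probe sets (log2 5.96, intensity 61.4) were left out, 7145 in number, and 12630 were tested. No genome build was named by the files, and promoter windows are from RefSeq, GRCh38.p14. The windows were searched for TCACNCCAC, CCAAT and GGGCGG on both strands.

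Tests used limma 3.58.1 in R 4.3.3 (lmFit, eBayes with an intensity trend), 2-sided, with Benjamini-Hochberg adjustment over all tested genes and a threshold of 0.05. All models had the stable line as a block: the labels pair the arrays of a line with and without DOX. Log2 intensities of tested genes correlated at 0.954 to 0.983 between arrays. The terms were knockdown, set on the shCNOT3 arrays with DOX (2 residual degrees of freedom), DOX and knockdown (1), and DOX in all lines (2), with median prior degrees of freedom of 7.59, 8.42 and 6.94. Nothing in the labels describes separate cultures, so p-values reflect only how these arrays spread, which may be technical. On simulated data (12630 genes, 200 changed, 5 runs) the models recovered 52.8%, 18.0% and 76.0% of 2-fold and 90.6%, 73.6% and 94.6% of 4-fold changes, with 7.12%, 17.0% and 6.57% of calls false, all above the nominal rate.

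The rule for named genes took all members, CNOT3, and up to 4 genes of each further list with the largest mean hairpin change. Promoters were to be shown for members at least 2-fold different in 1 direction in all lines or in both hairpins, and 3 more were added. The members and lists were chosen with earlier results of these data known. Alternatives were quantile normalization, 16 added before log2, means over probe sets, no filter, no intensity trend, no block, and leaving out lines in turn. Plots used Python 3.11.15 and matplotlib 3.10.9.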

Additional observations from a re-analysis of the deposited data

Results flagged for a closer look

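For 5 of the 31 members both shCNOT3 lines moved one way with DOX and shNTC the other way. Of 12630 tested genes, 4194 were higher with DOX in both shCNOT3 lines, and 1985 of these were higher in shNTC too. A further 3394 were lower in both, and 1687 of these were lower in shNTC too. The pattern was thus common among tested genes and less frequent among the members, and these counts have no test. The change beyond shNTC was -0.71 on the log2 scale for IDI1 (adjusted p = 0.550 in limma), 0.63 for HSD17B7 (0.673), 0.36 for SREBF2 (0.855), 0.32 for ACACA (0.837) and 0.29 for FDPS (0.816). None passed the threshold of 0.05. For FDPS the shNTC change was -0.0044, and for SREBF2 and ACACA a second bright probe set was lower with DOX in all 3 lines. The isomerase IDI1 (-0.47 and -0.55, against 0.19 in shNTC) and the reductase HSD17B7 (0.71 and 0.42, against -0.07) had the widest gaps, in opposite directions. For IDI1 another probe set was higher in shNTC (0.30), but the dimmer ones were lower there too (-0.25 and -0.35). By the mean of its bright probe sets IDI1 was lower with DOX in shCNOT3-1 (-0.29), shCNOT3-2 (-0.65) and shNTC (-0.03).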

How the results depend on the processing

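No member was called under any of the alternatives run; the lowest adjusted p for knockdown was 0.0570, with no replicate block. Of the 31 members' knockdown values, all kept their sign with quantile normalization, with 16 added before log2, with no filter and with no intensity trend, and without shNTC. Genes called for knockdown over the whole array numbered 28, and 6 with the mean of probe sets, 9 with the mean of bright probe sets, 3 with no filter, 0 with no intensity trend, 191 with no replicate block, and 39 to 62 with 1 line left out (62 without shCNOT3-2). For DOX in all lines the count was 0, and 0 to 1 with 1 line left out. Members at an unadjusted p under 0.05 numbered 8 for knockdown, 5 with no intensity trend and 3 to 8 with 1 line left out (3 without shCNOT3-1). For the change beyond shNTC there was 1, and 2 with the mean of probe sets, 2 with no filter and 0 with no intensity trend. For DOX in all lines there were 5, and 8 with the mean of probe sets and 10 with the mean of bright ones. The cause of these shifts was not tested.

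Signs turned for members whose hairpins or probe sets differ. Leaving out shCNOT3-1 or shCNOT3-2 gave ranges of -0.27 to 0.16 for MVK, -0.22 to 0.63 for LSS, -0.030 to 0.14 for TM7SF2, -0.11 to 0.46 for NSDHL, -0.14 to 0.26 for EBP, -0.28 to 0.056 for ACLY, -0.13 to 0.25 for SCD, -0.40 to 0.070 for FADS2, -0.18 to 0.43 for SREBF1, -0.55 to 0.69 for INSIG1, -0.75 to 0.19 for ABCG1, -0.27 to 0.35 for MYLIP and -0.27 to 0.21 for SOAT1, since each then rests on 1 hairpin. With the mean of all probe sets the value was -0.0071 for LSS, -0.0023 for EBP, -0.21 for SC5D, -0.17 for ACACA, -0.050 for ABCA1 and -0.21 for MYLIP; SC5D and ABCA1 then include probe sets below the filter. With the mean of bright ones it was 0.19 for MVK, -0.0023 for EBP, -0.17 for ACACA and -0.040 for MYLIP. With no replicate block it was -0.0011 for TM7SF2, -0.049 for EBP, -0.00079 for SCD, -0.12 for MYLIP and 0.14 for SOAT1; no call of a member changed without the block. Of the named genes of the further lists, 3 turned sign: GPAT3 ran from -1.20 to 0.20 with 1 line left out, PAQR3 was 0.14 with no replicate block and LIPA -0.16 with the mean of all probe sets. PLIN2 passed the threshold with no replicate block (adjusted p = 0.0463).

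Means over probe sets, all or bright, moved the fatty acid medians to 0.062 in shCNOT3-1 and 0.41 in shNTC, and the regulator medians to 0.13 in shCNOT3-1, 0.44 in shCNOT3-2 and 0.28 in shNTC. The transport and storage median in shCNOT3-1 was -0.18 with the mean of all probe sets. The pattern that DHCR7 had in the hairpin lines was met by 0 members with either mean, and by 606 genes, or 1578 with no filter. Members past 2-fold were 1 in shCNOT3-1 with quantile normalization, 0 in shCNOT3-2 with 16 added and 2 with the mean of probe sets, and in shNTC 3 with the mean of all and 2 with the mean of bright probe sets. The change beyond shNTC could not be fitted without a hairpin line, which leaves no residual degrees of freedom, and without shNTC the model of DOX in all lines is the knockdown model.

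Precision is limited by 1 array per line and state. Dim probe sets, such as that of MVD without DOX, have less signal over background than the others, and 2 of its 3 arrays were below the filter.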

Other observations

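In the absence of DOX the 3 lines were near each other for most members. The highest over the lowest of the 3 arrays without DOX ran from 1.04 for SREBF2 to 1.66 for ABCG1. For ACAT2 and DHCR7 the shCNOT3 lines without DOX were lower than shNTC without DOX by their mean, with log2 differences of -0.43 and -0.42, against 0.54 and 0.91 between their shCNOT3 arrays with and without DOX. ABCA1 without DOX was 458 in shCNOT3-1 and 295 in shCNOT3-2, against 315 in shNTC.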
